A study of Mus musculus with 8 samples.

Results

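The genes described here encode 5 cytokines of the Th1 side of the helper T cell response, namely Ifng (interferon-gamma), Tnf (tumour necrosis factor), Il2 (interleukin-2), Lta (lymphotoxin-alpha) and Ltb (lymphotoxin-beta). They are a set named by function, chosen with earlier results of these data known, and every array probe whose gene name in the scanner files was one of the 5 was taken. This gave 7 probes for 5 genes, out of 56587 probes on the array: 2 each for Tnf and Il2 and 1 each for Ifng, Lta and Ltb. Of the 7, 6 were bright enough to be tested and 1 probe of Il2 was not.

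RNA came from CD4+ T cells of C57BL/6 mice, with 4 groups of 2 arrays. Mice were tumour-free or bore MCA205-OVA, a fibrosarcoma that expresses ovalbumin (OVA). All 4 groups, the tumour-free controls included, were given OVA-specific CD4+ T cells that carried a transgenic T cell receptor, and dendritic cells loaded with an OVA peptide. Along with the dendritic cells came a control antibody or one that binds the receptor of IL-6 (anti-IL-6R), and CD4+ T cells were taken 4 days after that immunization. Replicates 1 and 2 were tumour-free with control antibody, 3 and 4 tumour-bearing with control antibody, 5 and 6 tumour-free with anti-IL-6R, while 7 and 8 bore the tumour and got anti-IL-6R. The isolates hold transferred and host CD4+ T cells together; the share of each, the purity, the number and age of the mice, the clone and dose of the antibodies and the promoter of the transgenic receptor were not stated in the labels. The study's title concerns inhibition of the Th1 response through IL-6 in mice with tumours, so the comparisons of interest are the hosts with and without a tumour and, in mice with tumours, anti-IL-6R against control antibody.

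Interferon-gamma is the defining product of Th1 cells: it signals through the receptor chains Ifngr1 and Ifngr2 and activates macrophages. Interleukin-2 is made by T cells soon after their antigen receptor is engaged and drives their division through STAT5, and tumour necrosis factor and the lymphotoxins are related proteins that act on a shared set of receptors and on NF-kappaB. Transcription of Il2, Tnf and Ifng in T cells depends on factors switched on by the antigen receptor, such as NFAT, AP-1 and NF-kappaB, whereas Ltb is transcribed in resting lymphocytes as well.

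Each probe is a 60-base DNA that binds the labelled copy of its transcript, so a value belongs to a probe before it belongs to a gene. The sequences are given in full for 1 probe of Il2, the one that was not well above background on any array, and by their first 30 bases for the probes of the other genes, of which Tnf has a pair that can be set side by side. All are written 5′ to 3′.
Ifng A_52_P68893: cttccctatacagctgaaaactgtgactac
Tnf A_51_P385099: tgggctttccgaattcactggagcctcgaa
Tnf A_55_P2740937: ttattgtctactcctcagagcccccagtct
Il2 A_55_P2935935: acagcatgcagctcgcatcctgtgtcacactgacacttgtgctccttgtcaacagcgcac
Lta A_51_P351015: aggggaaaaatagaaagccgtcagatgaca
Ltb A_51_P302358: atctgtattcattcctggaggatcgactga
On build mm9, which the file headers name, the Ifng probe lies at chr10:117882841-117882900 on the plus strand. The Tnf probes lie on the minus strand at chr17:35336795-35336854 and chr17:35336967-35337026, the Lta probe on the minus strand at chr17:35340275-35340334 and the Ltb probe on the plus strand at chr17:35333097-35333156. The Il2 probe A_55_P2935935 covers chr3:37024765-37024824 on the minus strand and starts at base 52 of the transcript. The 5 probes of the other genes start between bases 938 and 1158 of their transcripts. No exon annotation of mm9 was used here.

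Levels are log2 signals relative to the 75th percentile of the same array, so that 0 is the signal of a probe brighter than 75% of all probes. Brightness depends on the probe's sequence, and levels of different probes are not compared.

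Ifng was well above background on all 8 arrays. Its level was 2.22 and 2.35 in the tumour-free control antibody group, 1.25 and 1.93 in the tumour-bearing control antibody group, 1.63 and 1.98 in the tumour-free anti-IL-6R group, and 1.86 and 2.47 in the tumour-bearing anti-IL-6R group. The order of the group means was tumour-free control (2.28 ± 0.09, SD, n = 2), tumour-bearing anti-IL-6R (2.17 ± 0.43), tumour-free anti-IL-6R (1.81 ± 0.25) and tumour-bearing control (1.59 ± 0.48). Replicate 3 was the lowest of the 8 arrays. Each group overlapped its neighbour in that order, so neighbours did not differ beyond their spread, whereas the tumour-free control arrays lay above those of tumour-free anti-IL-6R and tumour-bearing control mice. Ifng varied more than most probes: its range over the 8 arrays was 1.22, larger than that of 86.1% of tested probes, and its within-group SD of 0.35 was larger than that of 87.8%.

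Tnf, which encodes a membrane-bound and shed cytokine, gave a similar order on both probes. On A_51_P385099 the level was 1.23 and 1.35 in tumour-free control mice, 0.80 and 1.22 in tumour-bearing control mice, 0.80 and 0.81 in tumour-free anti-IL-6R mice and 0.97 and 1.07 in tumour-bearing anti-IL-6R mice. On A_55_P2740937 the same groups gave 0.38 and 0.47, 0.07 and 0.39, 0.05 and 0.19, and 0.28 and 0.33. The tumour-free control group ranked highest and the tumour-free anti-IL-6R group lowest on both, and replicate 3 again lay below replicate 4.

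Il2, the T cell growth factor, was near the limit of detection in every group. The tested probe was well above background on 5 of 8 arrays, with levels of -3.31 and -4.41 in tumour-free control mice, -3.54 and -3.30 in tumour-bearing control mice, -3.90 and -3.81 in tumour-free anti-IL-6R mice and -4.15 and -3.84 in tumour-bearing anti-IL-6R mice. The tumour-bearing control group was the only one in which both arrays passed; in each of the others 1 of 2 did. The lowest signal called well above background on an array was between -4.43 and -3.83 on the same scale. The other probe, A_55_P2935935, was not well above background on any array, with levels between -5.98 and -4.86, and was not tested.

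Lta, whose product is the secreted lymphotoxin, stood at 1.80 and 1.82 in tumour-free control mice, 1.53 and 1.54 in tumour-bearing control mice, 1.79 and 1.56 in tumour-free anti-IL-6R mice and 1.62 and 1.47 in tumour-bearing anti-IL-6R mice. Ltb, which anchors lymphotoxin to the membrane, stood at 7.80 and 7.61, 7.52 and 7.77, 7.78 and 7.76, and 7.71 and 7.60 in the same groups. The 2 lymphotoxin genes moved least: their ranges over 8 arrays were 0.34 and 0.28, against 1.22 for Ifng, and the Ltb arrays overlapped in every comparison between groups but that of the hosts under anti-IL-6R.

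**Figure D1:**
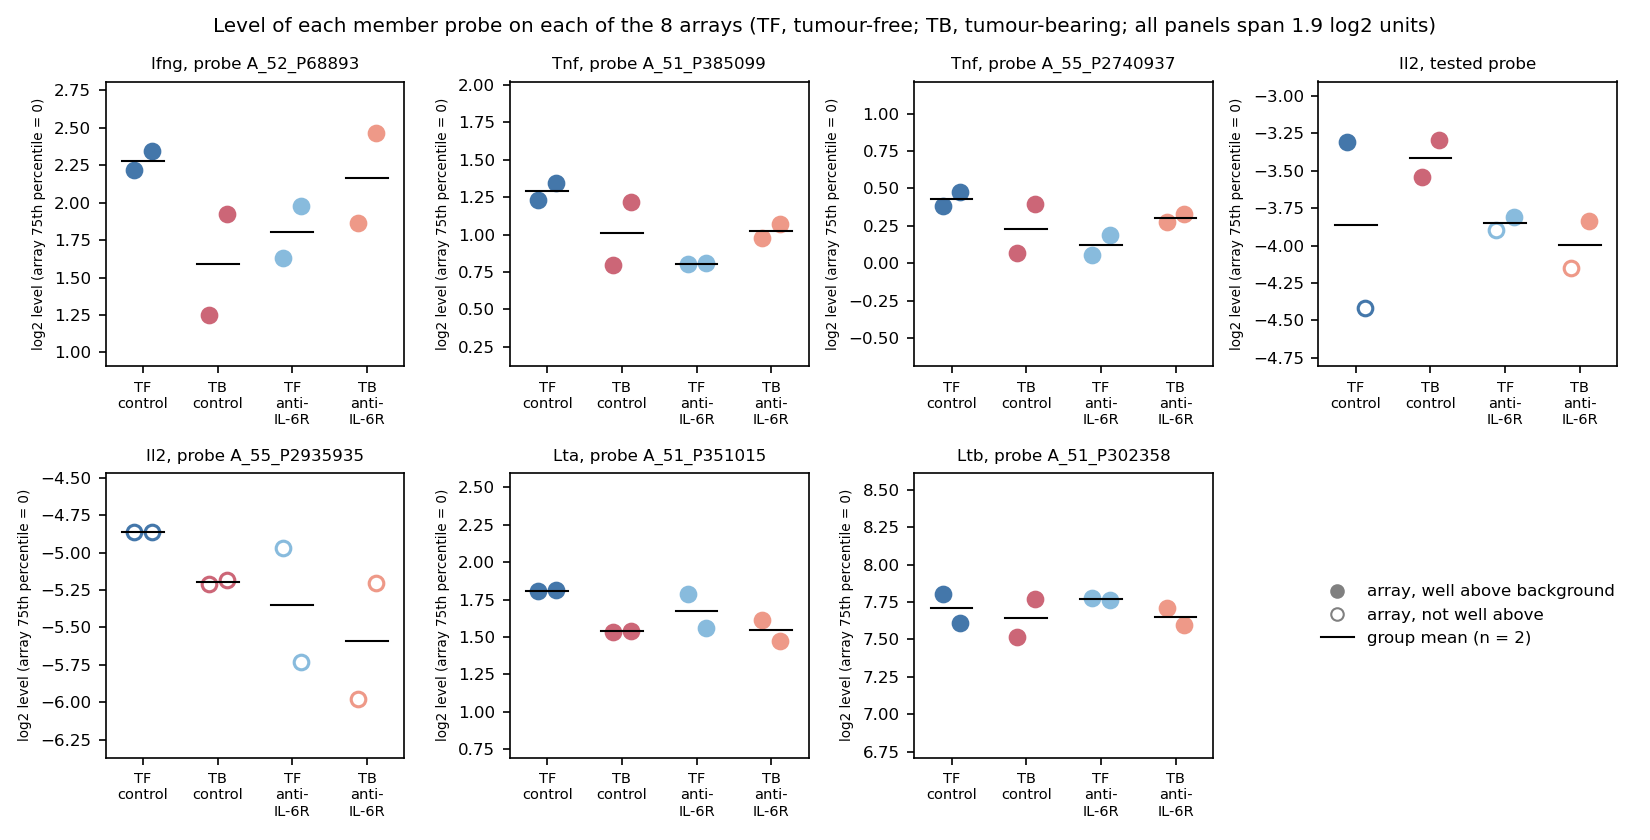
Log2 level (vertical axis, array 75th percentile at 0) of each of the 7 probes on each of the 8 arrays, by group (TF, tumour-free; TB, tumour-bearing); filled points were well above background, open points were not, and bars are means of 2 arrays. Ifng spans 1.22 with replicate 3 lowest at 1.25, Ltb spans 0.28, and the second Il2 probe has only open points.

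Differences between groups were tested with limma over all 32041 sufficiently bright probes, and a probe was called at a Benjamini-Hochberg adjusted p under 0.05. Values are log2 differences ± standard error (SE), n = 2 arrays a group. No member probe was called in any of the 5 comparisons. At an unadjusted limma p under 0.05 there were 2, 1, 2, 0 and 2 of 6, none of them the Il2 probe, in the order in which the comparisons follow. Over all 32041 tested probes there were 7626, 8662, 2570, 2384 and 7583 in the same order. Each condition came from 2 independent experiments, but the labels do not tie arrays to experiments, and the p-values cover only how far these samples spread, which may be partly technical. All arrays shared 1 slide, with control antibody and anti-IL-6R in different columns and the hosts in different rows, so position on the slide and the factors host and antibody cannot be told apart. The comparisons share groups, so their values are not independent of each other.

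Under control antibody, Ifng was lower on both arrays of tumour-bearing mice than on both arrays of tumour-free mice, by a difference of -0.69 ± 0.25 (95% interval -1.27 to -0.12, a ratio of 0.619), which did not pass the threshold (limma adjusted p = 0.14). Lta stood at -0.27 ± 0.10 (interval -0.49 to -0.05), with the same limma adjusted p of 0.14. Its SDs were 0.0086 and 0.0079 within these groups of 2 arrays, but 0.16 and 0.10 in the tumour-free and tumour-bearing anti-IL-6R groups. Tnf stood at -0.28 ± 0.13 and -0.20 ± 0.12 on its probes (adjusted p = 0.24 and 0.38). Ltb stood at -0.06 ± 0.10 and Il2 at 0.44 ± 0.37 (adjusted p = 0.77 and 0.53). The Il2 probe passed the brightness filter through the tumour-bearing control group alone, which is also the group where it was brightest, so its differences from that group are given as values and the probe is left out of the counts that follow. The median over the other 5 probes was -0.27, against 0.01 over all tested probes, of which 5.26% were called. The arrays of the groups did not overlap for 3 of the 5, the probes of Ifng and Lta and 1 of Tnf, against 52.5% of all probes. The Ifng difference was -0.35 without replicate 3 and -1.03 without replicate 4 (adjusted p = 0.5 and 0.079), and the Tnf difference on A_51_P385099 was -0.07 and -0.49.

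In tumour-bearing mice, Ifng stood higher under anti-IL-6R than under control antibody, by 0.58 ± 0.25 (interval 0.0013 to 1.15, a ratio of 1.49), again without passing (limma adjusted p = 0.18), and the arrays overlapped, since replicate 7 at 1.86 lay below replicate 4 at 1.93. Differences were 0.02 ± 0.13 and 0.07 ± 0.12 on the probes of Tnf, 0.01 ± 0.10 for Lta and 0.01 ± 0.10 for Ltb, with adjusted p between 0.74 and 0.97. No interval reached beyond 0.35 in either direction for Tnf, or beyond 0.24 for the lymphotoxins. Il2 stood at -0.58 ± 0.37 (adjusted p = 0.35), again against the group that let its probe through the filter and with replicate 7 not above background. Of the other 5 probes, 0 had arrays that did not overlap, against 59.9% of all probes; 4.29% of all probes were called. The Ifng difference was 0.24 without replicate 3 and 0.27 without replicate 8, 0.91 without replicate 4 and 0.88 without replicate 7.

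In tumour-free mice, anti-IL-6R went with lower values of Tnf on both of its probes, by -0.48 ± 0.13 (interval -0.79 to -0.18, unadjusted p = 0.0062, limma adjusted p = 0.5) and -0.31 ± 0.12 (interval -0.58 to -0.03, adjusted p = 0.61). The 4 array values of each Tnf probe did not overlap between the groups. Ifng stood at -0.47 ± 0.25 and Lta at -0.13 ± 0.10 (adjusted p = 0.65 and 0.71), also without overlap, while Ltb at 0.06 and Il2 at 0.01 overlapped. Non-overlap in 4 of the 5 probes other than that of Il2 compares with 40% of all probes, and 0.0312% of all probes, 10 in number, were called.

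Under anti-IL-6R, tumour-bearing mice stood above tumour-free mice by 0.36 ± 0.25 for Ifng and by 0.22 ± 0.13 and 0.18 ± 0.12 for Tnf (limma adjusted p = 0.6, 0.59 and 0.6). Il2, Lta and Ltb stood at -0.14, -0.13 and -0.12. The called share of all probes was 0.209%. Non-overlap was seen in 3 of the 5 probes other than that of Il2 (both of Tnf, and Ltb), against 47.8% of all.

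The antibody difference was 1.05 ± 0.35 larger in tumour-bearing than in tumour-free mice for Ifng (interval 0.24 to 1.86, limma unadjusted p = 0.017, adjusted p = 0.14). For Tnf this difference of differences was 0.50 ± 0.19 and 0.38 ± 0.17 (adjusted p = 0.16 and 0.23), for Lta 0.14, for Ltb -0.06 and for Il2 -0.59. None passed the threshold, which 0.025% of all probes did. The antibody thus went with opposite signs of the Ifng value in the 2 hosts, 0.58 and -0.47, without the difference being called, and it ranged from 0.71 without replicate 3 to 1.39 without replicate 4.

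**Figure D2:**
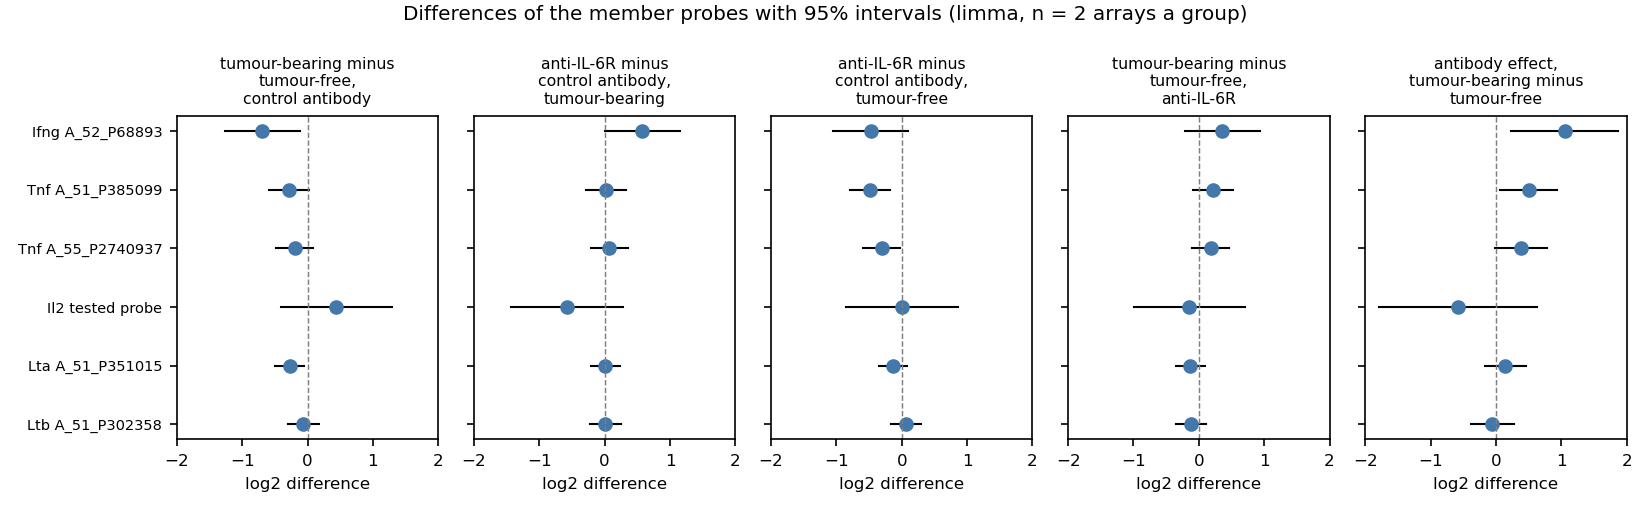
Log2 differences of the 6 tested probes in the 5 comparisons (points) with 95% intervals from limma (lines); the dashed line is 0. Ifng lies at -0.69, 0.58, -0.47, 0.36 and 1.05, the intervals of Il2 are the widest, the lymphotoxins stay between -0.27 and 0.14, and no point passed the adjusted threshold.

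Promoters of the 3 genes whose values moved most or are most tied to the antigen receptor are printed from RefSeq, build GRCm38.p6, as the 250 bases before the transcript start. Capitals mark matches on either strand to any of 7 motifs: NFAT core GGAAA, AP-1 TGANTCA, NF-kappaB, T-box TCACAC, STAT TTCNNNGAA, c-Maf core TGCTGA and TATA box TATAAA. The windows are chr10:118440796-118441045 (plus strand), chr17:35202008-35202257 (minus strand) and chr3:37125955-37126204 (minus strand).
Ifng: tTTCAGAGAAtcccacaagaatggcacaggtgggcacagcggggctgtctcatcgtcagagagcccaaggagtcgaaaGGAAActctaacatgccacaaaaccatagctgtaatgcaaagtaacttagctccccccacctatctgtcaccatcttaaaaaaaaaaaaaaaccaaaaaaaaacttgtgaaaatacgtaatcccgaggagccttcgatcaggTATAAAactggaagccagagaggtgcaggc
Tnf: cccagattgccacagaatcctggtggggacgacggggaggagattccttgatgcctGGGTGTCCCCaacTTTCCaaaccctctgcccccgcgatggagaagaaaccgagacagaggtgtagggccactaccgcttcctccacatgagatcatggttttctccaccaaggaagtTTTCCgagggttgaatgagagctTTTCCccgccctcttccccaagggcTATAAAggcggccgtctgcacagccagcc
Il2: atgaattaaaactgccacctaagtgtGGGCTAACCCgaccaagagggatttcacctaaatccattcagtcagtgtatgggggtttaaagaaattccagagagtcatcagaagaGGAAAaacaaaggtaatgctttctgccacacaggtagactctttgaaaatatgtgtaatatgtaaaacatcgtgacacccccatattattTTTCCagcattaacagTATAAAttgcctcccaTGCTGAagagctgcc
All 5 genes, matched by symbol in the promoter table, had the NFAT core, as did 55.6% of 27025 promoters. An NF-kappaB match was in 4 of 5, all but Ifng (45.4% of promoters), and a TATA box in 4 of 5, all but Ltb (13% of promoters). In Ifng, Tnf and Il2 the TATA match began 29 to 31 bases before the start, whereas in Lta it began 167 bases before it. The Lta window, unlike those of the other 4 genes, lies mostly within the gene by the reference gene table (227 of 250 bases), which uses another start site, so the Lta matches may not be upstream of the transcript measured here. Tnf held 3 NFAT cores, at 181, 77 and 54 bases before the start, and Il2 held 2. The NF-kappaB match of Tnf and that of Il2 read the same pattern on both strands of the same 10 bases. A STAT match was in Ifng, Lta and Ltb (7.18% of promoters). The c-Maf core was in Il2 alone of the 5, 15 bases before the start (15.8% of promoters), and neither the AP-1 (6.87%) nor the T-box letters (12.2%) were in any of the 5 windows. On the same build, Ltb, Tnf and Lta lie side by side within 11072 bases of chromosome 17.

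Next to the members, 14 of 18 neighbouring genes (up to 3 on each side) were bright enough to be tested. Il21, the gene beside Il2 that encodes a cytokine of follicular helper T cells, was the only neighbour called in any comparison. It rose by 3.18 ± 0.30 with the tumour under control antibody (limma adjusted p = 0.0019) and stood at -1.43 ± 0.30 for anti-IL-6R in tumour-bearing mice (adjusted p = 0.043, lost without any one of replicates 3, 4, 7 and 8, up to 0.15, and also without the filter on dim probes or the intensity trend); its other probe gave 0.59 and 0.04. With the tumour under control antibody, Il22, a neighbour of Ifng, stood at 0.10 (limma adjusted p = 0.84) and Dyrk2, on its other side, at -0.41 (adjusted p = 0.082); for anti-IL-6R in tumour-bearing mice they stood at -0.27 and 0.43 (adjusted p = 0.5 and 0.069). The neighbours of the lymphotoxin cluster, Aif1, Lst1, Nfkbil1, Atp6v1g2, Ddx39b and Prrc2a, stood between -0.23 and 0.24 in the first of these comparisons and between -0.22 and 0.53 in the second, with Aif1 highest there (adjusted p = 0.1).

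The remaining genes of the members' pathways are described by lists, each gene by its brightest probe; of all 21520 genes, 889 rose and 405 fell in tumour-bearing against tumour-free mice given control antibody (6.01% called, median 0.03). Of the 9 receptor genes of the 5 cytokines, 2 rose and 0 fell (median 0.09). Il2rb, the signalling chain of the IL-2 receptor, rose by 0.44 ± 0.08, and Tnfrsf1b, a receptor for TNF and lymphotoxin, by 0.48 ± 0.08 (limma adjusted p = 0.025 and 0.017). Leaving out any one of replicates 1 to 4 ended the Il2rb call, and leaving out replicate 2, 3 or 4 ended that of Tnfrsf1b (highest adjusted p of 0.12 and 0.078). The Il2rb call was also lost without the filter on dim probes or the intensity trend, and another Tnfrsf1b probe gave -0.09. Ifngr1 stood at 0.24 and Ifngr2 at -0.14, neither called.

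Among 24 transducers and targets of interferon-gamma, 0 rose and 1 fell (median 0.06). Cxcl9, a chemokine gene that interferon-gamma induces in myeloid cells above all, stood at -0.41 and -0.47 in tumour-free control mice, -1.10 and -1.14 in tumour-bearing control mice, -0.25 and -0.41 in tumour-free anti-IL-6R mice and -0.09 and -0.13 in tumour-bearing anti-IL-6R mice. The tumour-bearing control arrays lay below all others. Under control antibody it fell by 0.67 ± 0.10 (limma difference -0.67, adjusted p = 0.011; 0.053 without replicate 2). None of 16 NF-kappaB subunit and feedback genes was called (0 higher, 0 lower; median -0.01), with Tnfaip3, which encodes the feedback inhibitor A20, at -0.89 ± 0.31 (adjusted p = 0.13).

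Of 14 genes induced through IL-2 and STAT5, 3 rose and 0 fell (median 0.25). Cish, a STAT5-induced feedback inhibitor, rose by 0.59 ± 0.07 and Gzmb, which encodes granzyme B, by 1.75 ± 0.24 (limma adjusted p = 0.0059 and 0.0078). Both calls were kept without any single array. The rise came beside an Il2 probe near background whose own difference was not called.

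Of 15 genes of the Th1 programme, 4 rose and 0 fell (median 0.33), while Ifng itself stood at -0.69. Without replicate 2, without replicate 3 or without the intensity trend, 1 of the 4 calls was left, that of Il12rb1; those of Cxcr3, Ly6c2 and Nkg7 were lost. Il12rb1, which encodes part of the receptor for IL-12, stood at 2.10 and 2.19 in tumour-free control mice, 3.02 and 2.86 in tumour-bearing control mice, 2.28 and 2.17 in tumour-free anti-IL-6R mice and 2.21 and 2.05 in tumour-bearing anti-IL-6R mice, so that the tumour-bearing control arrays lay above the rest. It rose by 0.80 ± 0.09 under control antibody (limma adjusted p = 0.0051). Tbx21, the gene of T-bet, the Th1 lineage factor, stood at 0.46 ± 0.12 (adjusted p = 0.072).

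Of 17 factors induced by the antigen receptor, 3 rose and 2 fell (median -0.03), or 0 and 1 without replicate 2 and 1 and 1 without replicate 3, without the filter on dim probes or without the intensity trend. The 3 that rose were Batf, Egr2 and Egr3, by 0.42, 0.73 and 0.37 (limma adjusted p = 0.039, 0.011 and 0.048). The Egr3 call was lost without any one of the 8 arrays, that of Batf without replicate 2, 3, 4, 7 or 8 and that of Egr2 without replicate 2. With only the groups compared the calls of Batf and Egr3 were lost as well. Jun, an AP-1 subunit, fell by 0.90 ± 0.11 (limma difference -0.90, adjusted p = 0.0051). Of 9 measured repressors of Il2 or Ifng, 5 rose and 0 fell (median 0.39), but 2 rose without replicate 2, without replicate 3 or without the intensity trend, when the calls of Bcl6, Gata3 and Foxp3 were lost, and 3 without the filter on dim probes. With any 1 array left out 2 to 4 rose. The Gata3 call was lost without any array but replicate 4, and that of Foxp3 without any one of replicates 1 to 6. Under quantile normalization 4 rose and 1 fell. Another Bcl6 probe gave -0.04. Ikzf3, also among the 5 that rose, stood at 0.62 (limma adjusted p = 0.0092), but its 5 other probes lay between -0.55 and 0.36. The largest rise was that of Maf, which encodes c-Maf, by 1.13 ± 0.09 (adjusted p = 0.0013), with 1.11 and 1.16 on its other probes. Of 12 genes for decay of cytokine mRNA or shedding of TNF, 0 rose and 1 fell (median -0.02). The 1 that fell was Zfp36l2, at -0.40 (limma adjusted p = 0.049). Its call was lost without the filter on dim probes, without the intensity trend and with only the groups compared. With an array left out its difference ranged from -0.47 to -0.33. Of 18 other T cell cytokine and chemokine genes, 5 rose and 1 fell (median 0.21), with 3 risers left without replicate 2. Il4, the Th2 cytokine gene, rose by 2.50 ± 0.17 and Ccl3, a chemokine gene, fell by 1.31 ± 0.17 (limma difference -1.31, adjusted p = 0.0007 and 0.0062). Among the 18, Csf2 passed the brightness filter through the tumour-bearing control group alone and Il13 through the tumour-bearing anti-IL-6R group alone. Each was brightest in that group. Neither was called, but the number measured and the median are not independent of the filter. The calls on Il12rb1, Jun, Maf, Il4 and Ccl3 were kept without any single array.

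In tumour-bearing mice, 381 of all genes rose and 730 fell under anti-IL-6R against control antibody (5.16% called, median -0.05). Of the receptors 0 of 9 and of the IL-2 and STAT5 genes 0 of 14 were called. Of the interferon-gamma list 2 rose and 0 fell (median 0.14): Cxcl9 rose by 1.01 ± 0.10 and Cxcl10, another such chemokine gene, by 0.74 ± 0.16 (limma adjusted p = 0.018 and 0.047). Cxcl10 also stood at 0.68 ± 0.16 in tumour-free mice (adjusted p = 0.42). Of the NF-kappaB list 1 rose, Tnfaip3 by 1.43 ± 0.31 (adjusted p = 0.044; median 0.02). Of the Th1 programme 0 rose and 3 fell (median -0.23), Il12rb1 with a difference of -0.81 ± 0.09 and Tbx21 with -0.60 ± 0.12 among them (adjusted p = 0.025 and 0.043).

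In the same comparison 3 of 17 receptor-induced factors rose and 1 fell (median 0.13), with Jun at 0.68 ± 0.11 (limma adjusted p = 0.028). Of the repressors 0 rose and 3 fell (median -0.20), with Maf at -0.73 ± 0.09 (limma adjusted p = 0.026). Ikzf3, also among the 3, stood at -0.46 (adjusted p = 0.036), but its 5 other probes lay between -0.24 and 0.57. Of the mRNA decay genes 1 rose and 1 fell (median 0.02), with Zfp36l2, a binder of AU-rich elements, at 1.02 ± 0.09 (adjusted p = 0.015). In tumour-free mice Zfp36l2 stood at 6.645 and 6.856 under anti-IL-6R against 6.326 and 6.191 under control antibody, uncalled. Of the other T cell cytokines 1 rose and 4 fell (median -0.15), with Ccl3 at 1.47 ± 0.17 and Il4 at -1.61 ± 0.17 (limma adjusted p = 0.022 and 0.02). That median includes Csf2 and Il13, each let through the brightness filter by 1 of the compared groups. All of the pathway calls in this comparison depended on replicate 8: without it the adjusted p was 0.073 for Cxcl9, 0.23 for Cxcl10, 0.26 for Tnfaip3, 0.095 for Il12rb1, 0.25 for Tbx21, 0.16 for Jun, 0.12 for Maf, 0.065 for Zfp36l2, 0.086 for Ccl3 and 0.076 for Il4. Some were also lost without another array, at no higher adjusted p: Cxcl10 without any one of replicates 1 to 4 and 7, Tnfaip3 and Tbx21 without any one of 1 to 4, Jun without 3 or 4 and Maf without 3. Without the filter on dim probes, as without the intensity trend, 2 calls of the 9 lists were left in this comparison, those of Cxcl9 and Zfp36l2. The Tbx21 call was also lost under quantile normalization and with only the groups compared. In the other 3 comparisons no gene of these 9 lists was called.

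**Figure D3:**
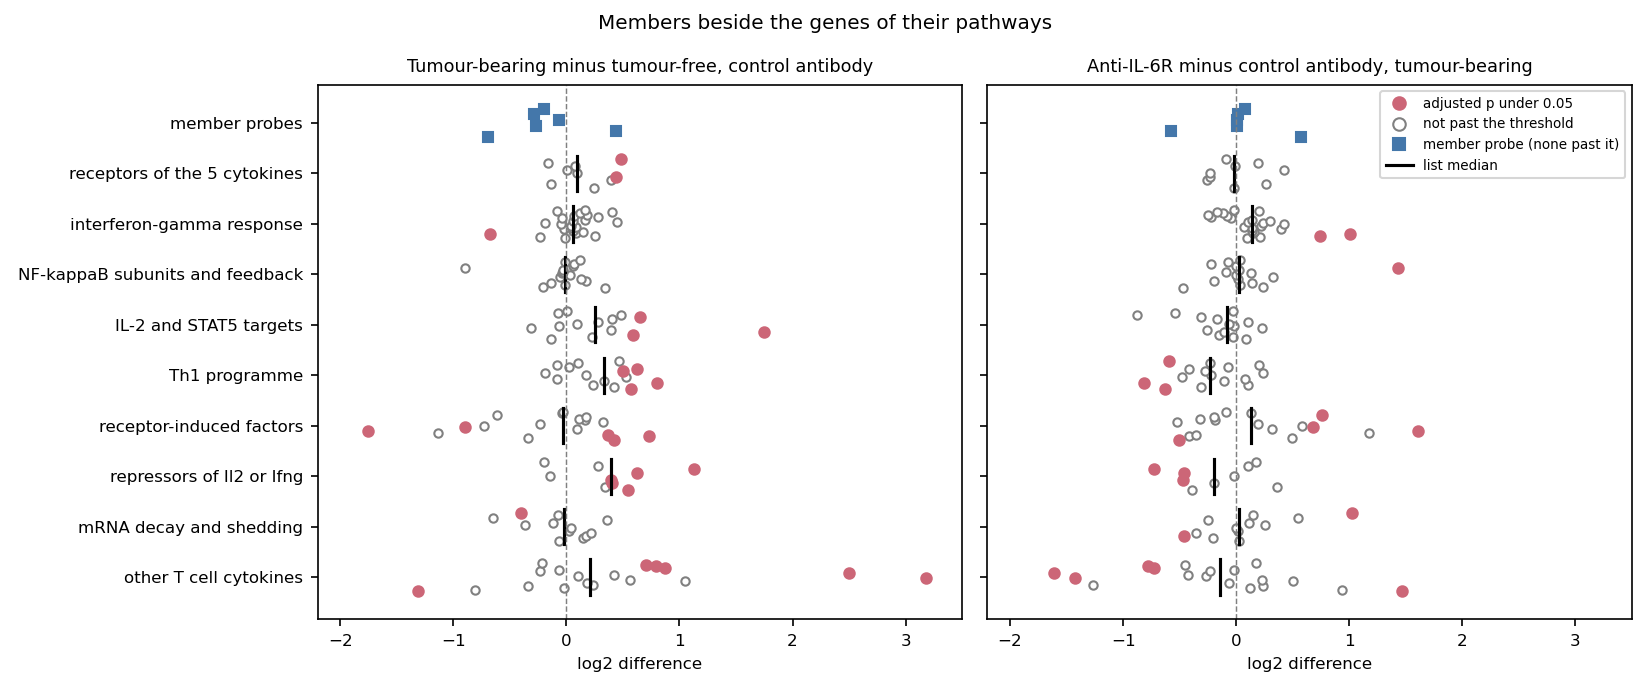
Log2 differences (horizontal axis) of the member probes (squares) and of the genes of 9 pathway lists (circles, filled where the adjusted p was under 0.05; bars are list medians) in 2 comparisons. Member probes stay between -0.69 and 0.58 with none past the threshold, while the Th1 programme and the repressors have medians of 0.33 and 0.39 in the first panel and -0.23 and -0.20 in the second.

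By the likeness of pattern over the 8 arrays (root mean square difference of mean-centred log2 levels among 12833 genes), the genes most like Ifng were Nr1i3 (0.054), Ddit3 (0.094) and Fam83e (0.11), against a root mean square of 0.37 for Ifng itself. Those most like Il2 were Olfr1344 (0.16), Dpysl4 (0.20) and Slc35f6 (0.20), and the Il2 pattern includes 3 arrays not well above background. The other members spanned less than 1 log2 unit and were given no such genes.

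The labelled cell type had its markers: 9 of 9 pan T cell markers on the array, Cd3e and Cd4 included, were well above background on every array. With the tumour under control antibody all 9 stood above 0 (median 0.20), with sums of 1047 to 1058 against 860.6 to 962.6. The 1 call among them, of a higher value, was lost without any one of replicates 2 to 6. Under anti-IL-6R in tumour-bearing mice 0 of 9 stood above 0 and 0 were called (median -0.29, sums of 805.9 to 912.9). The isolates also held transcripts of other cell types, which move with the comparisons above, and in such bulk samples fewer cells of a type and less RNA per cell cannot be told apart. Natural killer (NK) cells also make interferon-gamma. Of 11 measured NK markers 1 rose and 3 fell with the tumour under control antibody. The one that rose was Klrb1c, which encodes an NK cell receptor, by 0.87 (limma adjusted p = 0.035, lost without replicate 2, 3 or 4), with 0.69 and 0.82 on its other probes. The 3 that fell were Klra8, Gzma and Klra4, with differences of -1.17, -0.85 and -1.43 (limma adjusted p = 0.0041, 0.0042 and 0.0041), and Ncr1, a defining receptor, stood at -0.69 (adjusted p = 0.18). Under anti-IL-6R in tumour-bearing mice 3 rose and 0 fell, with Gzma at 0.74 and Klra4 at 1.22 (adjusted p = 0.026 and 0.027) and Ncr1 at 0.55 (adjusted p = 0.24), while Klrb1c stood at -0.60 (adjusted p = 0.083). The calls of Gzma and Klra4 in this comparison were lost without replicate 8 (adjusted p = 0.082 and 0.12), without replicate 4, without the filter on dim probes or the intensity trend and, for Gzma, without replicate 3. Klrc1 was not well above background on any array. The summed NK signal, in units of the array's 75th percentile, was 37.7 to 39.5, 29.3 to 43.6, 43.3 to 50.6 and 43.2 to 48.6 in the order of the replicates' groups. Tyrobp, which myeloid cells express as well, contributed 17.6 to 31.2 of it. Without Tyrobp the sum was 16.4 and 17.2, 12.4 and 11.7, 19.1 and 19.6, and 17.7 and 15.6. Both tumour-bearing control arrays were the lowest. The sum without Tyrobp came mostly from Gzma and Prf1, at log2 levels of 2.36 to 3.49 and 1.28 to 1.95. The other markers in it reached at most 0.98 (Klrb1c). It thus largely repeats the fall of Gzma, and the part of NK cells in it was not tested. Replicate 3 had a lower Ifng level than replicate 4 (1.25 against 1.93) and a higher sum, and a link between the 2 measures was not tested.

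Other lists moved as well under control antibody in tumour-bearing against tumour-free mice. Neutrophil markers summed to 119.1 to 127.1 against 33.5 to 53.4, with 5 of 10 called higher, and erythroid markers to 656.5 to 1078 against 238 to 473.3, with 8 of 10 higher. B cell markers summed to 33.0 to 46.5 against 53.4 to 70.8, with 5 of 11 lower, and plasma cell markers to 42.9 to 46.7 against 23.6 to 24.5, with 5 of 7 higher. Sdc1 and Tnfrsf17 of the plasma cell list and Ngp of the neutrophil list passed the brightness filter through the tumour-bearing control group alone. That is also the group where they were brightest, so the counts of both lists are not independent of the filter. Monocyte and macrophage markers, whose cells make Tnf and Cxcl9, summed to 161.8 to 219 against 178.8 to 189.9, with 1 of 12 higher, and dendritic cell markers to 397.7 to 452.3 against 493.6 to 513.4, with 0 of 8 called; the dendritic cell marker Xcr1 was not well above background on any array. The dendritic cell sum came mostly from Siglech, H2-Ab1 and Ccr7, whose log2 levels were at least 6.499 on every array. The other tested markers of that list reached at most 3.01 (Itgax). The sum is thus mainly the signal of those brightest genes, and the part of other cell types in it was not tested. Of CD8 T cell markers 0 of 2 and of gamma-delta T and NKT cell markers 0 of 3 were called. Several of these counts depended on 1 array: B cell markers gave 0 lower without replicate 2 or 4, plasma cell markers 2 higher without replicate 2 or 3, erythroid markers 5 higher without replicate 1 or 3 and neutrophil markers 8 higher without replicate 5 or 6.

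Under anti-IL-6R against control antibody in tumour-bearing mice several of the same lists differed as well, beside the pathway calls described above. Of 10 neutrophil markers 0 were called higher and 5 lower (median -1.49; sums of 35.4 to 53.1 against 119.1 to 127.1), and of 10 erythroid markers 0 were higher and 6 lower (median -1.04), or 0 lower without replicate 8 and 1 without replicate 3. Of 11 B cell markers 1 was called higher and all 11 stood above 0 (median 0.72). Of 12 monocyte and macrophage markers 1 was called higher and 1 lower, with 11 above 0 (median 0.54; sums of 230.2 to 270.7 against 161.8 to 219). Of 8 dendritic cell markers 0 were called and all 8 stood above 0 (median 0.41), and of 7 plasma cell markers 1 was lower (median -0.70). The single calls on B cell, plasma cell and monocyte markers were lost without replicate 8. Ngp, Sdc1 and Tnfrsf17 passed the brightness filter through the control antibody group of this comparison alone, so the neutrophil and plasma cell counts are not independent of it. The part of these cell types in the values of the 5 cytokines was not tested.

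**Figure D4:**
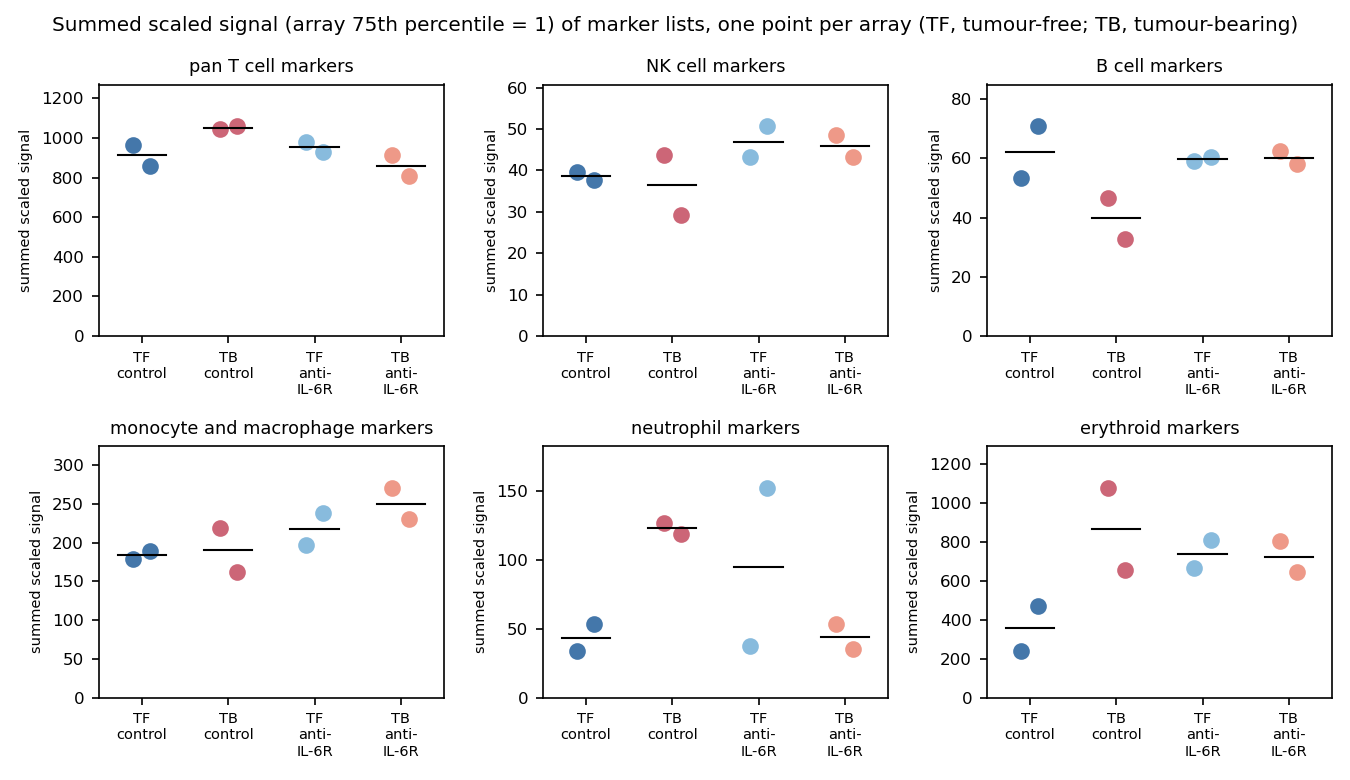
Summed signal of 6 marker lists on each array (points; vertical axis in units of the array's 75th percentile, from 0), by group (TF, tumour-free; TB, tumour-bearing), with bars for means of 2 arrays. Pan T cell markers lie between 805.9 and 1058 on all arrays and are highest in tumour-bearing control mice (1047 to 1058). Neutrophil markers reach 119.1 to 127.1 in tumour-bearing control mice and 152.2 on 1 of the 2 tumour-free anti-IL-6R arrays.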

How the data were processed

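Total RNA of CD4+ T cells (0.1 µg per array) was labelled with cyanine-3 and hybridized to 1 one-colour array per sample, per the labels' protocols. The deposited scanner files hold intensity values from the authors' scans, read with version 10.10.1.1 of Agilent Feature Extraction per the submitters' processing notes, background-subtracted and detrended per the file headers. The value table that the authors deposited holds log2 values; each column equalled the log2 processed signal minus 1 constant per array, which served as an alternative. Here, control spots (3671 of 62976) and outlier spots (60 to 95 per array) were dropped, spots of a probe averaged, and log2 signals taken minus the array's 75th percentile (500.4 to 526.5 before scaling). Between 55.1% and 61.5% of spots were well above background and none was saturated. A probe was kept where at least 1 group had both of its arrays well above background (32041 of 56587); 18 more had no usable spot on some array. Names came from RefSeq by accession (32986 probes), symbol (10220) or synonym (520); 12861 kept the file's name. Intervals cover the spread between arrays, whose number limits the precision.

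Groups were compared in limma 3.58.1 (R 4.3.3, with data.table in version 1.17.8) with 4 group means over all 8 arrays (4 residual degrees of freedom, prior 4.28) and an intensity trend; tests were two-sided. On simulated data for the first comparison (32041 probes), 70 of 100 changes of 1 log2 unit and 96 of 100 of 2 units were recovered, with 14 false calls. Python 3.11.15, pandas 2.3.3 and matplotlib 3.10.9 were also used. Named genes were all member probes, up to 4 genes per list and comparison with the smallest p, measured neighbours, marker genes that define a cell type, and the 3 genes most like a member that spans at least 1 log2 unit; not every gene of the rule is printed. The members and lists were chosen with earlier results of these data known. Alternatives were quantile normalization, normexp (offset 50), no filter on dim probes, no intensity trend, 1 probe per gene, the authors' log2 values, only the compared groups, and each array left out. The counts per list under these alternatives, the NK sum without Tyrobp and the member counts without Il2 were added after seeing the data. A planned identity between the proteins was not run. The sequence of 1 probe is not reported here.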

Additional observations from a re-analysis of the deposited data

How the results depend on the processing

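No member probe was called under any of the alternatives run, in any of the 5 comparisons. Member differences kept their sign in 417 recomputed values and changed it in 22, which were uncalled values of Il2, Ltb, Lta or Tnf, and those of Ifng never did. Many of the 417 could not change sign. A probe's difference stays the same without the filter, without the trend, with 1 probe per gene and with only the compared groups. Leaving out an array of a group not compared does not alter it either. The count of kept signs is thus no measure of stability. Over all alternatives Ifng ranged from -1.03 to -0.35 between hosts under control antibody (adjusted p 0.079 to 0.5) and from 0.24 to 0.91 for the antibody in tumour-bearing mice (0.095 to 0.7). Counts of called probes over the whole array depended on the variance model and on single arrays, and the cause was not tested. Tumour-bearing against tumour-free under control antibody gave 1684 probes, 683 without the filter on dim probes, 725 without the intensity trend and 427 to 1784 with an array left out. Anti-IL-6R in tumour-bearing mice gave 1374, then 15, 56, 904 with only the groups compared and 24 (without replicate 8) to 1758. Anti-IL-6R in tumour-free mice gave 10, 21 with normexp, 6 with 1 probe per gene, 19 with only the groups compared and 8 to 52. Tumour-bearing against tumour-free under anti-IL-6R gave 67, then 22 without the filter, 21 without the trend, 11 with only the groups compared and 13 to 219. The difference of antibody differences gave 8, with 5 under quantile normalization, 13 under normexp, 0 without the filter (limma; 8592 of 56587 probes had an unadjusted p under 0.05), 20 without the trend and 4 to 364. No analysis paired by experiment was possible because the labels do not tie arrays to experiments, and a slide block could not be fitted with 1 slide. With an array left out, the lone array of a group is assumed to vary like the others. Signal near background limits Il2 most.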
